A study of Mus musculus with 3 samples.

Results

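The genes of the BCOR complex and the subunits that it shares with other Polycomb repressive complexes 1 (PRC1) were followed at the RNA level in mouse embryonic stem (ES) cells with and without Pcgf1, the PCGF subunit of PRC1.1. The set held 9 genes, chosen by name: Bcor, Bcorl1, Kdm2b, Rybp, Yaf2, Ring1, Rnf2, Usp7 and Skp1a. They were read from lists with 26366 genes under a single name in any sample. Of the 9 genes, 6 were listed under their own name in every sample (Bcor, Bcorl1, Rybp, Yaf2, Ring1 and Usp7). The other 3 stood in at least 1 sample under a name joined with neighbouring genes, so their values are given apart: Kdm2b in all samples, Rnf2 in Pcgf1-/-+Pcgf1 and Skp1a in WT.

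Poly(A) RNA was sequenced from 3 samples of ES cells labelled C57BL/6, a single sample for each genotype: wild type (WT), Pcgf1 knockout (Pcgf1-/-) and knockout with added Pcgf1 (Pcgf1-/-+Pcgf1). Pcgf1-/- cells were grown from a picked colony after Cas9 and 2 sgRNAs had removed exons 2 and 3 of Pcgf1, and Pcgf1-/-+Pcgf1 cells are the same knockout cells carrying a lentiviral Pcgf1 with an N-terminal FLAG tag. All cells were grown with serum and leukemia inhibitory factor on mouse embryonic fibroblast feeders whose division had been blocked with mitomycin-C. There were no replicates, so no value below has an error between cultures, no test was possible, and the 3 comparisons share their samples. The levels are FPKM, fragments scaled to transcript length and to the mapped fragments of the sample, and no counts were in the files used, so the depth is unknown.

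PRC1 complexes place ubiquitin on histone H2A lysine 119 through the E3 ligases Ring1A (Ring1) and Ring1B (Rnf2). In PRC1.1 the ligase is held by Pcgf1 together with the corepressor BCOR or BCORL1 and with Rybp or Yaf2, and Kdm2b brings the complex to unmethylated CpG islands through its CXXC zinc finger. Usp7 and Skp1 were purified with the same complex, and both also act in many other complexes.

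Several differences below concern the listed form of a transcript and not only its level. Coding sequences that were absent from part or all of a gene's listed transcripts are therefore shown first. They were read from GENCODE vM21 transcripts on mm10 and run 5′ to 3′ in lower case. The Rybp exons are those that the Pcgf1-/-+Pcgf1 sample listed as skipped, the Bcor sequences are an exon and an exon end that only a share of Bcor included, and the capitals in Yaf2 mark the stop codon that its alternative exon brings into frame.
Rybp exon 3, chr6:100233063-100233239, minus strand: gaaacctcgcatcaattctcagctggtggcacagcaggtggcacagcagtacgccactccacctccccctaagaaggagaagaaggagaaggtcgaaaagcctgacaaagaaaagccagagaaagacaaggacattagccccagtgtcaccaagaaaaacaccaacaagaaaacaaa
Rybp exon 4, chr6:100232867-100232965, minus strand: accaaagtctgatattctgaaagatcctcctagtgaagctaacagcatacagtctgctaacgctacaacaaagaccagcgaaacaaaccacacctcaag
Bcor skipped exon, chrX:12055639-12055692, minus strand: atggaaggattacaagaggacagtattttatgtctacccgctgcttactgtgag
Bcor exon-end segment, chrX:12048546-12048647, minus strand: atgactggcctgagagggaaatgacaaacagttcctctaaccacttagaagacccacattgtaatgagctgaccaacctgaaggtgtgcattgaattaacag
Yaf2 skipped exon up to its stop codon, chr15:93317554-93317608, minus strand: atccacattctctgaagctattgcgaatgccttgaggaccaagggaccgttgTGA

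Pcgf1 itself was read first, as a check of the labels. It was listed at 14.0 FPKM in WT, 5.88 in the knockout and 7.86 in Pcgf1-/-+Pcgf1. The Pcgf1-/- sample listed only a form that joined exon 1 to exon 4, at 5.88 FPKM, with the form holding exons 2 and 3 at 0. That event was not listed for WT or Pcgf1-/-+Pcgf1, where all of Pcgf1 was in the form of WT. The RNA of the knockout sample therefore lacked the 2 targeted exons in every listed transcript, and the remaining level was not a level of intact Pcgf1. The library labelled Pcgf1-/-+Pcgf1 is described as the same knockout cells, but the deleted form was absent from its list, so the list does not bear out the deletion there. Whether the deleted form was missed at the unknown depth was not tested. For the rescued cells the authors reported FLAG-tagged Pcgf1 by immunoprecipitation and by chromatin immunoprecipitation. Whether its Pcgf1 came from the lentivirus or from an intact locus was not tested. Below, Pcgf1-/-+Pcgf1 names the library with that label, and each direction drawn from it is under this limit.

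**Figure D1:**
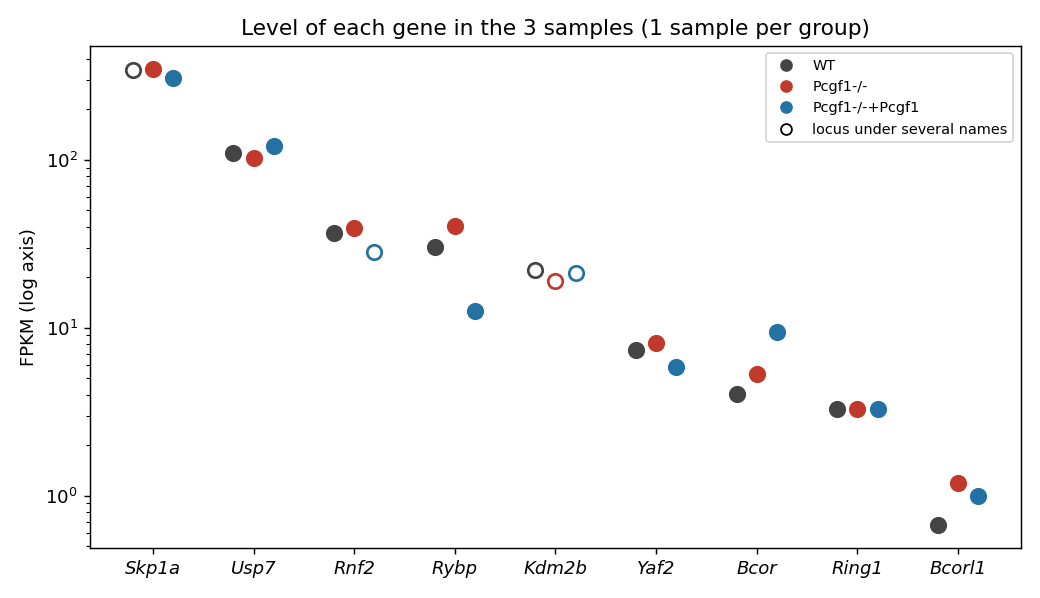
Level of each gene (FPKM, log axis) in the WT, Pcgf1-/- and Pcgf1-/-+Pcgf1 samples, 1 point per sample, with open points for loci listed under several names. Rybp at 12.6 FPKM and Bcor at 9.49 FPKM in Pcgf1-/-+Pcgf1 stand apart from the other samples of the same gene.

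Between Pcgf1-/- and WT, no gene of the set passed 2-fold. Of 7 genes measured under their own name in both samples, 0 passed that limit, 5 had a higher value and 2 a lower value in Pcgf1-/-. The background was 7.23% of all 25613 genes compared, and 4.95% of the 6831 genes with at least 5 FPKM in either sample. At such a background a set of this size with no gene past the limit does not stand apart. The median log2 ratio of the 7 genes was 0.14, beside -0.07 for the 6831 genes.

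In Pcgf1-/-+Pcgf1 against Pcgf1-/-, 1 of 7 genes passed 2-fold, and it was Rybp, with a lower value. The share of all genes past the limit was 8.62%, and 6.27% of the 6757 genes with at least 5 FPKM. The median log2 ratio was -0.18 for the set and -0.05 for those genes. In Pcgf1-/-+Pcgf1 against WT, 2 of 6 genes passed 2-fold, Bcor with a higher value and Rybp with a lower one, beside 6.34% of all genes and 3.37% of the 6799 genes with at least 5 FPKM. Neither gene passed the limit between Pcgf1-/- and WT. With 1 sample a group, a difference between the knockout and the library labelled Pcgf1-/-+Pcgf1 cannot be told apart from a difference between cultures.

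**Figure D2:**
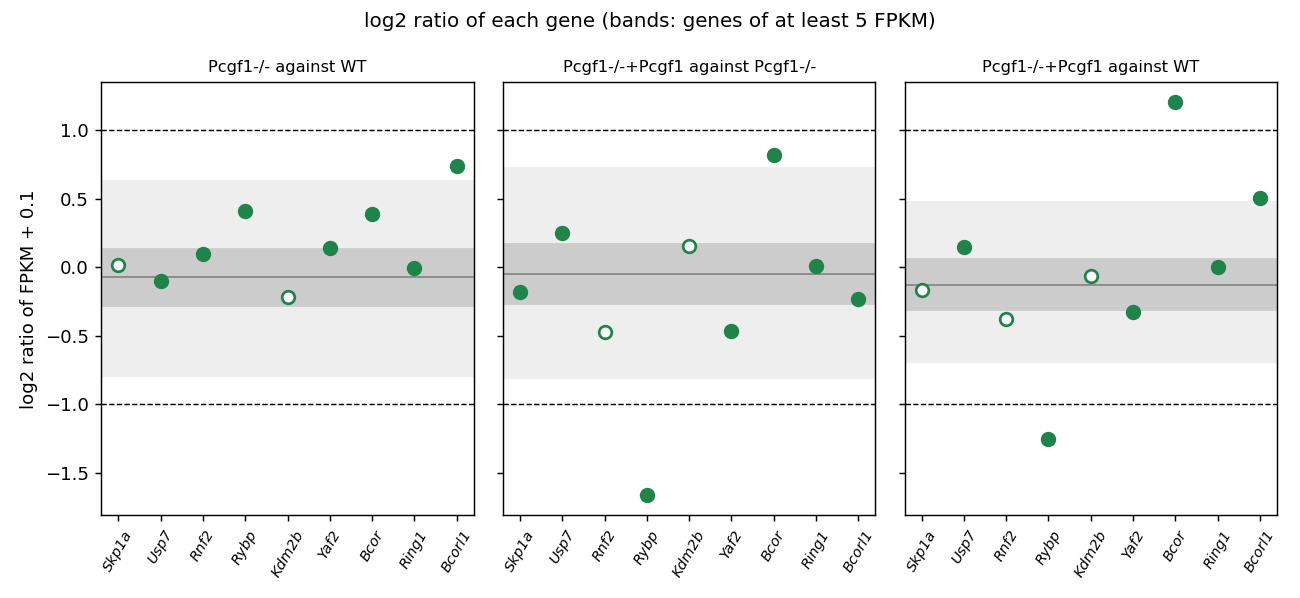
log2 ratio of FPKM + 0.1 for each gene in the 3 comparisons, with open points for loci listed under several names. The line is the median, the dark band the middle 50% and the light band the 5th to 95th percentile of genes with at least 5 FPKM, and the dashed lines mark 2-fold. Rybp (-1.67 and -1.25) and Bcor (1.20) are the points beyond a dashed line.

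Bcor (ENSMUSG00000040363, chrX:12036740-12160355, minus strand) encodes the BCL6 corepressor that gives the complex its name. It was listed at 4.06 FPKM in WT, 5.33 in the knockout and 9.49 in Pcgf1-/-+Pcgf1. Thus Bcor was lowest in WT and highest in the library labelled Pcgf1-/-+Pcgf1, and the knockout lay between them. The log2 ratio of FPKM + 0.1 was 0.38 for Pcgf1-/- against WT, 0.82 for Pcgf1-/-+Pcgf1 against Pcgf1-/- and 1.20 for Pcgf1-/-+Pcgf1 against WT. The last of these is 2.30-fold, and the others lie within 2-fold. These are RNA values. By Western blot the authors reported less BcoR protein in Pcgf1-/- ES cells, and they proposed that Pcgf1 affects its stability.

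The first exons listed for Bcor also differed between the samples. The exon at 12128242 to 12128400, the first exon of a short annotated transcript, carried 2.60 FPKM in WT and 1.06 in Pcgf1-/-, or 64.1% and 19.9% of Bcor. In Pcgf1-/-+Pcgf1 a longer exon with the same splice end, from 12128242 to 12128454, carried 5.54 FPKM, or 58.4%. This region therefore held most of Bcor in WT and in Pcgf1-/-+Pcgf1, but not in the knockout. In Pcgf1-/- the largest share, 2.00 FPKM or 37.6%, was given to a start at 12077991 to 12078123 that was listed in no other sample and lies between annotated exons. The most upstream annotated exon at 12160289 to 12160355 held 0.557, 1.27 and 2.50 FPKM in WT, Pcgf1-/- and Pcgf1-/-+Pcgf1, and so followed the order of the gene. The exon at 12079818 to 12080553, shared by 4 annotated transcripts, held 0.902, 0.998 and 1.45 FPKM in the same order.

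An alternative exon of 54 bases in Bcor (18 codons) was included at 3.50 FPKM and skipped at 0.557 in WT, which is 86.3% inclusion. It was included at 5.33 FPKM and skipped at 0 in Pcgf1-/-, or 100% inclusion. In Pcgf1-/-+Pcgf1 it was included at 6.99 FPKM and skipped at 2.50, or 73.7%. The skipped values of WT and Pcgf1-/-+Pcgf1 equal those of the most upstream start in these samples and are not independent of them. A segment of 102 bases (34 codons) at an alternative exon end was present in 2.77 of 4.06 FPKM in WT (68.2%), 3.07 of 5.33 in Pcgf1-/- (57.5%) and 5.54 of 9.49 in Pcgf1-/-+Pcgf1 (58.4%). These shares too are tied to the starts, since the 5.54 FPKM is the value of the exon at 12128242 to 12128454 and the 3.07 FPKM is the sum of the 1.06 and 2.00 FPKM starts of Pcgf1-/-. Both segments keep the reading frame, and both forms of the exon end are annotated in full-length coding transcripts of 1707 to 1759 codons.

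**Figure D3:**
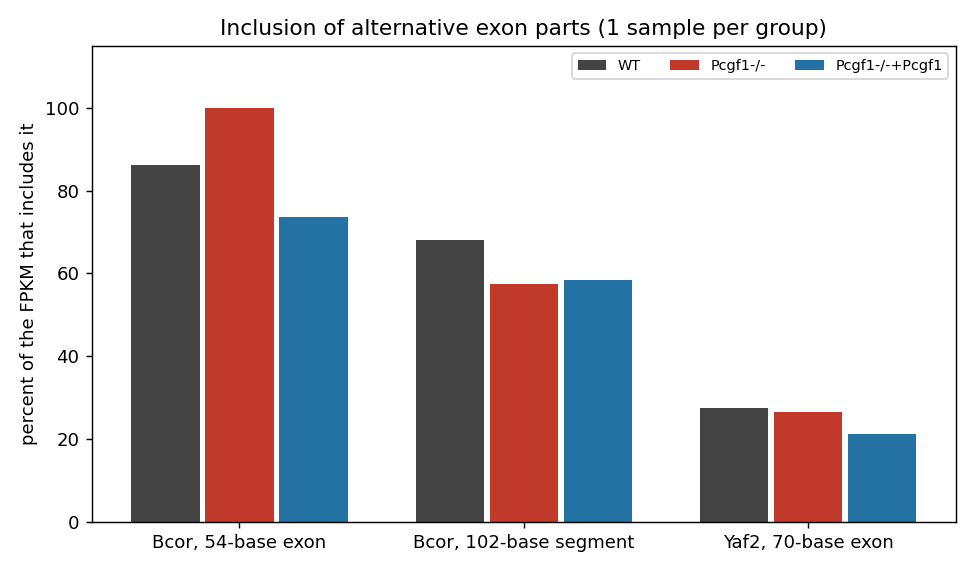
Percent of the listed FPKM that included each alternative exon part of Bcor and Yaf2 in the 3 samples, 1 bar per sample on an axis from 0. The 54-base Bcor exon ranged from 73.7% to 100%, the 102-base segment from 57.5% to 68.2% and the Yaf2 exon from 21.3% to 27.5%.

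Bcorl1 (ENSMUSG00000036959, chrX:48341358-48408049, plus strand), the paralog of Bcor, was the gene of the set with the lowest level. It was listed at 0.670 FPKM in WT, 1.18 in the knockout and 0.993 in Pcgf1-/-+Pcgf1. Of the genes above 0 in WT, 24.7% had a lower FPKM, against 46.2% for Bcor. The log2 ratio of Pcgf1-/- against WT was 0.74, the largest of the set in that comparison and within 2-fold. This rank depended on the pseudocount: with 1 FPKM in place of 0.1, Bcorl1 was at 0.386 and Rybp at 0.402. The largest share of Bcorl1 was at the annotated first exon at 48343770 to 48343889, with 0.389, 0.892 and 0.433 FPKM in WT, Pcgf1-/- and Pcgf1-/-+Pcgf1. The start at 48341358 to 48341483 held 24.4%, 24.6% and 14.3% of the gene in the same order. A start at 48342061 to 48342249 was above 0 in WT only (17.5%), and an unannotated start at 48345525 to 48345549 was listed in Pcgf1-/-+Pcgf1 only (42.1%). An exon of 387 bases (129 codons) was skipped in 0.117 FPKM in WT and in no transcript above 0 in the other samples. A skip of several exons from 48367419 to 48371032 left 75.6% inclusion in WT, 75.4% in the knockout and 100% in Pcgf1-/-+Pcgf1. At these levels, the lowest of the set, the shares rest on low values of unknown depth.

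Kdm2b (ENSMUSG00000029475, chr5:122870665-122989823, minus strand) was listed in every sample under a name joined with RP23-214I6.5 and Gm2479. Of the 29 rows of that locus, 27 lay inside Kdm2b, and the 2 outside had an FPKM of 0. First exons of the locus summed to 22.1 FPKM in WT, 19.0 in the knockout and 21.1 in Pcgf1-/-+Pcgf1, while its last exons were listed at 0. The samples thus lay close together, with a log2 ratio of -0.22 for Pcgf1-/- against WT.

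Kdm2b has a long form with a JmjC demethylase domain and a short form that starts within the gene, lacks that domain and keeps the CXXC zinc finger. The annotated transcripts of the long form (23 exons, 1309 codons) and the short form (12 exons, 776 codons) start 88744 bases apart, at chr5:122988868-122989099 and chr5:122900149-122900355. The short form was listed at 11.4 FPKM in WT, 14.9 in the knockout and 10.5 in Pcgf1-/-+Pcgf1. The long form was listed at 4.96, 4.09 and 3.35 FPKM in the same order. Hence the short form was the larger in every sample, by 2.29, 3.64 and 3.14 times. In Pcgf1-/- the short form held 78.5% of the locus, beside 51.3% in WT and 49.8% in Pcgf1-/-+Pcgf1. The long form held 22.4% in WT, 21.5% in the knockout and 15.8% in Pcgf1-/-+Pcgf1, so its share was close in WT and the knockout. The rest of the locus in WT and in Pcgf1-/-+Pcgf1 included starts that were above 0 in a single sample: an exon at 122917674 to 122917724, with 5.83 FPKM in WT, and an exon at 122921905 to 122922107, with 7.27 FPKM in Pcgf1-/-+Pcgf1. Both are first exons of annotated processed transcripts and lie within the gene, 71.4 and 67.0 kb from the long-form start. Both were at 0 in the knockout, which bears on the shares of the locus. The ratio of the short to the long form leaves these starts out, and was 3.64 in the knockout beside 2.29 in WT. Whether the balance of the forms differs beyond the spread between cultures was not tested.

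The start of the short form lies in CpG-rich DNA, the kind of sequence that the CXXC finger of Kdm2b binds. The 245 bases upstream of its first exon, taken from the RefSeq promoter table (GRCm38.p6, the build of mm10), are shown with each CG in capitals. They hold 36 CG and overlap no annotated exon of Kdm2b.
Kdm2b upstream of the short-form first exon, chr5:122900356-122900600, minus strand: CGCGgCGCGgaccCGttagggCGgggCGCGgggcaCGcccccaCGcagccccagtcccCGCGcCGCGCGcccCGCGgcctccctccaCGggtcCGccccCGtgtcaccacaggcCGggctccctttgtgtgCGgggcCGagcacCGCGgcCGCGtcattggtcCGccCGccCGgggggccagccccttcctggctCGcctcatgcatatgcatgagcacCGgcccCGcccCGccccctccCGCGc

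The 300-base RefSeq window of this start, 250 bases before it and 50 after, held 49 CG, a count reached by 1.02% of the 32851 promoters in the table. The window of the long-form start held 28 CG, a count reached by 14.2%. A CG reads the same on both strands, and 94.6% of all promoters held at least 1, with a median of 7. The table gave 11 windows for 7 of the 9 genes, and none for Rybp and Yaf2. These windows held 18 to 63 CG, so each was above the median promoter, and the highest, at Usp7, was reached by 0.0304% of promoters. That window lies at the Usp7 exon at 8738204 to 8738420, which held 13.7% to 20.5% of the gene. The larger first exon of Usp7 at 8792236 to 8792308 had no window. The Bcor windows lie at its most upstream start, which held 13.7% to 26.3% of Bcor. A CG count is a property of the sequence and not a measure of Kdm2b binding, which was not measured here.

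**Figure D4:**
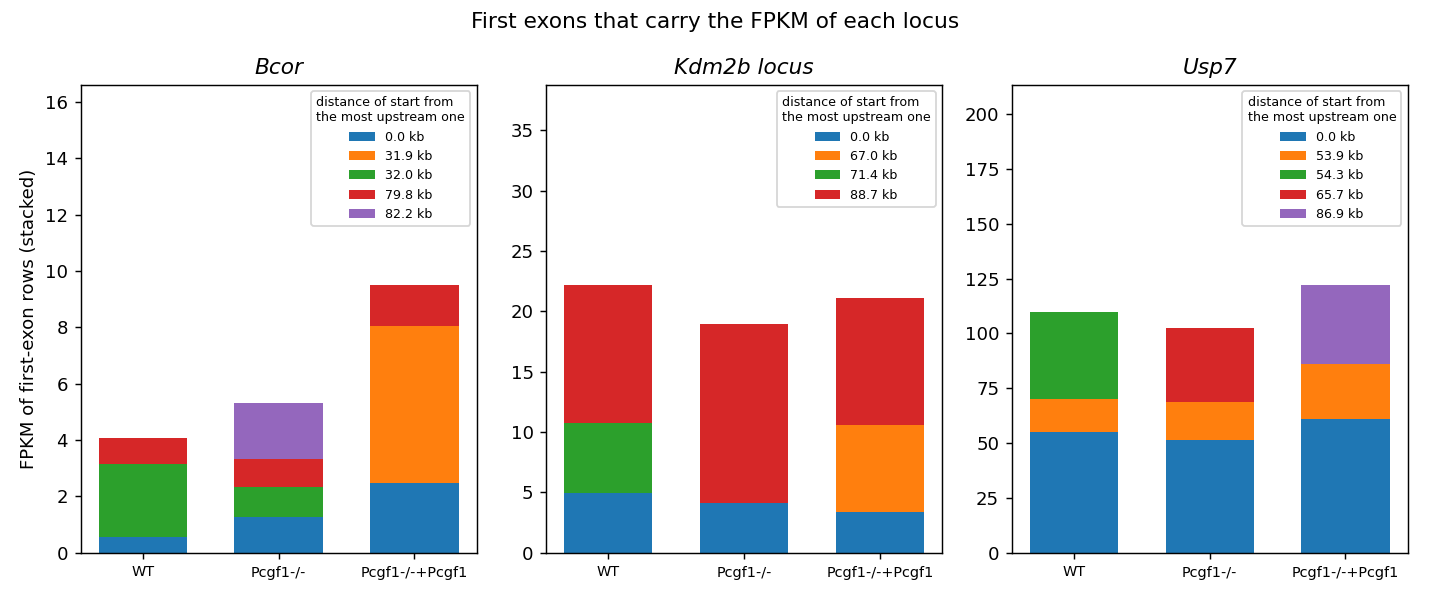
FPKM of the first exons that carried Bcor, the Kdm2b locus and Usp7 in each sample, stacked, with colours for the distance of each start from the most upstream one in kb. Starts that carry FPKM in a single sample lie inside the genes, such as the 82.2 kb start of Bcor in Pcgf1-/- alone and the 67.0 kb start of Kdm2b in Pcgf1-/-+Pcgf1 alone.

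Rybp (ENSMUSG00000072872, chr6:100228565-100287485, minus strand), a zinc finger protein that binds Ring1B and ubiquitylated H2A, had the widest range of the set. It was listed at 30.3 FPKM in WT, 40.3 in the knockout and 12.6 in Pcgf1-/-+Pcgf1. Rybp was therefore highest in the knockout and lowest in the library labelled Pcgf1-/-+Pcgf1. The log2 ratio was 0.41 for Pcgf1-/- against WT, -1.67 for Pcgf1-/-+Pcgf1 against Pcgf1-/- (3.17-fold lower) and -1.25 for Pcgf1-/-+Pcgf1 against WT (2.38-fold lower).

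The form of Rybp also differed. In WT and Pcgf1-/- the first and last exons were listed with equal values and no alternative event was given. In Pcgf1-/-+Pcgf1 the whole 12.6 FPKM was listed for a form that skipped exons 3 and 4, and the form including them was listed at 0. The last-exon row of exon 5 was not listed in that sample, and its other last-exon row, at 100233094 to 100233239, was at 0. The skipped exons have 177 and 99 bases, and the annotated coding transcript of Rybp (5 exons, 228 codons) has both as coding over their whole length. Together they are 276 bases or 92 codons, so leaving them out keeps the reading frame. The Rybp value of Pcgf1-/-+Pcgf1 was thus listed for a form without these 92 codons, and no listed last exon shows how that form ends. In extracts of rescued cells the authors reported that Rybp protein came down with FLAG-tagged Pcgf1. Whether the sequenced sample held intact Rybp RNA was not tested.

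Other skips were searched for the traits of this Rybp listing after it had been seen, so Rybp had to be among the results. The skips counted were not limited to expressed genes. Among 3792 skips of several exons listed for Pcgf1-/-+Pcgf1, 127 were given for that sample alone, and 2 of these had the including form at 0 and the skipping form at 5 FPKM or more. They were in Rybp and in the locus Ube2v1,Gm20431,Tmem189. The same search gave 0 events in WT, and in Pcgf1-/- it gave 2 of 3791, in Pcgf1, whose exons 2 and 3 had been removed, and in the locus Strada,Gm25556,Ccdc47. Whether the Rybp listing stems from the RNA or from the assembly of transcripts was not tested, and the reads were not analysed here. Rybp was also 1 of 32 genes with at least 5 FPKM at first exons in every sample whose last exons were lost in Pcgf1-/-+Pcgf1 alone. In 3 of these 32 genes (9.38%) the log2 ratio of Pcgf1-/-+Pcgf1 against Pcgf1-/- was below -1, beside 93 of 4661 genes (2.00%) with last exons above 0 in every sample. Rybp is 1 of these 3, and the median ratio was 0.02 for the 32 genes and -0.06 for the 4661. The 32 genes were grouped by a trait of Rybp itself, and whether that trait bears on the Rybp value was not tested.

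By their levels over the 3 samples, Selt and Pltp were among the genes most like Rybp of 6841 compared, with 5 genes within a distance of 0.2 on the log2 scale. Selt was listed at 31.3 FPKM in WT, 43.1 in the knockout and 14.7 in Pcgf1-/-+Pcgf1, at a distance of 0.126. Pltp, which encodes the phospholipid transfer protein, was listed at 123.7, 177.3 and 60.2 FPKM in the same order, at a distance of 0.153. Both were highest in Pcgf1-/- and lowest in Pcgf1-/-+Pcgf1, which is the pattern they were chosen for, and 3 samples set few limits on such a likeness.

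Yaf2 (ENSMUSG00000022634, chr15:93284278-93336935, minus strand), the paralog of Rybp that can take its place in PRC1, was listed at 7.39 FPKM in WT, 8.16 in the knockout and 5.87 in Pcgf1-/-+Pcgf1. Its order over the samples, which Rnf2 and Skp1a also showed with their joined values, was that of Rybp, within a narrower range of 1.38-fold. An exon of 70 bases, annotated in a transcript that is a target of nonsense-mediated decay, was included in 2.04, 2.15 and 1.25 FPKM in WT, Pcgf1-/- and Pcgf1-/-+Pcgf1. It was skipped in 5.35, 6.00 and 4.63 FPKM, so that inclusion was 27.5%, 26.4% and 21.3%. Its stop codon leaves 68 codons, beside 179 in the transcript without the exon. The exon was therefore in a minority of Yaf2 in each sample, and the share was lowest in the library labelled Pcgf1-/-+Pcgf1.

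Ring1 and Rnf2 encode the alternative catalytic subunits. Ring1 (ENSMUSG00000024325, chr17:34020792-34024680, minus strand) was listed at 3.29 FPKM in WT, 3.27 in the knockout and 3.29 in Pcgf1-/-+Pcgf1. Its range of 1.01-fold was the narrowest of the set, although its level was among the lowest. The sign of its ratio for Pcgf1-/- against WT depended on how the samples were scaled.

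Rnf2 (ENSMUSG00000026484, chr1:151458004-151500955, minus strand) was listed at 36.9 FPKM in WT and 39.4 in Pcgf1-/-, and at 28.3 in Pcgf1-/-+Pcgf1 under a name joined with Gm36527, with every row of that locus inside Rnf2. On a scale per length Rnf2 was thus above Ring1 in each sample. The log2 ratio of Pcgf1-/- against WT was 0.10. Set side by side, the joined value gives -0.48 against Pcgf1-/- and -0.38 against WT. In WT, 12.3 FPKM or 33.4% of Rnf2 started at an exon at 151483126 to 151483198 that lies between annotated exons and was not listed in the other samples. The annotated first exon at 151500719 to 151500833 held 24.6 FPKM in WT, and all of Rnf2 in the other samples. Skipping of an exon of 89 bases was listed as an event in Pcgf1-/-+Pcgf1 alone, with 28.3 FPKM including it and 0 skipping it. The skips of several exons listed in that sample alone were at 0 in both forms.

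Usp7 (ENSMUSG00000022710, chr16:8689595-8792308, minus strand), a deubiquitinase with many substrates, was listed at 110.0 FPKM in WT, 102.6 in the knockout and 121.9 in Pcgf1-/-+Pcgf1. Its log2 ratios were -0.10, 0.25 and 0.15 in the order of the comparisons above. Its last exons were listed at 0 in every sample, so these values rest on first exons alone. The annotated first exon at 8792236 to 8792308 held 54.9, 51.4 and 61.0 FPKM in WT, Pcgf1-/- and Pcgf1-/-+Pcgf1, or close to 50% in each. The exon at 8738204 to 8738420 held 15.1, 17.4 and 24.96 FPKM. A further 40.0 FPKM in WT, 33.7 in the knockout and 35.9 in Pcgf1-/-+Pcgf1 were given to 3 starts within the gene, each listed in 1 sample, at 8737958 to 8737983, 8726578 to 8726603 and 8705297 to 8705371. Those of WT and the knockout are 26 bases long and lie between annotated exons. The listed starts thus differed between samples in Usp7 also, at a level that stayed within 1.19-fold. Whether starts listed in a single sample, here and in the other genes, stem from the RNA or from the assembly of transcripts was not tested.

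Skp1a (ENSMUSG00000036309, chr11:52231995-52246858, plus strand) encodes Skp1, the adaptor of SCF ubiquitin ligases that binds the F-box of Kdm2b. It was the most abundant gene of the set, at 349.3 FPKM in Pcgf1-/- and 308.2 in Pcgf1-/-+Pcgf1. Of the genes above 0 in Pcgf1-/-, 98.8% had a lower FPKM. In WT it was listed at 345.4 FPKM under a name joined with Ppp2ca, Mir3061 and Gm12207, with all 9 rows inside Skp1a. The log2 ratio of Pcgf1-/-+Pcgf1 against Pcgf1-/- was -0.18. All of it came from 1 first exon in every sample.

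The order of levels in WT was Skp1a, Usp7, Rnf2, Rybp, Kdm2b, Yaf2, Bcor, Ring1 and Bcorl1. In Pcgf1-/-, Rybp at 40.3 FPKM lay just above Rnf2 at 39.4, a difference that cannot be read without replicates. In Pcgf1-/-+Pcgf1, Rybp lay below Kdm2b, and Bcor at 9.49 FPKM lay above Yaf2 at 5.87.

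The other genes of the Polycomb system and of the pathways around the complex were read in the same way from lists chosen with earlier results known. In Pcgf1-/- against WT, 0 of 5 other Pcgf paralogs, 0 of 14 other partners of variant PRC1 complexes, 0 of 11 PRC2 genes, 0 of 6 genes of H2A deubiquitylation (Usp16 was listed at 0 throughout), 0 of 4 SCF partners of Skp1a and neither Kdm2a nor Bcl6 passed 2-fold. The share past 2-fold was 7.23% of all genes and 4.95% of genes with at least 5 FPKM in either sample. At such a background a single list of such a size with no gene past the limit does not stand apart. Of 8 canonical PRC1 genes 1 was past the limit. This was Phc1, a Polyhomeotic subunit, at 197.2 FPKM in WT, 94.4 in the knockout and 161.2 in Pcgf1-/-+Pcgf1. Phc1 was thus lower in the knockout than in both other samples, with a log2 ratio of -1.06. Rbbp4, a histone-binding subunit of PRC2 and of other complexes, was listed at 86.0 FPKM in WT, 164.0 in the knockout and 137.6 in Pcgf1-/-+Pcgf1, with a log2 ratio of 0.93 for Pcgf1-/- against WT.

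Among the Pcgf paralogs, which define the other PRC1 complexes, log2 ratios for Pcgf1-/- against WT ran from -0.31 (Pcgf3) to 0.32 (Pcgf5). Kdm2a, the paralog of Kdm2b with its own CXXC finger, was listed at 15.4, 15.3 and 16.0 FPKM in WT, Pcgf1-/- and Pcgf1-/-+Pcgf1. In both comparisons of Pcgf1-/-+Pcgf1, 1 of 8 canonical PRC1 genes passed 2-fold and no gene of the other Polycomb and pathway lists did. The share of all genes past the limit was 8.62% against Pcgf1-/- and 6.34% against WT. Among genes with at least 5 FPKM in either sample it was 6.27% and 3.37%. The gene past it was Cbx8, at 0.702 FPKM in WT, 0.945 in the knockout and 0.270 in Pcgf1-/-+Pcgf1. Its log2 ratios were -1.50 against Pcgf1-/- and -1.12 against WT.

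**Figure D5:**
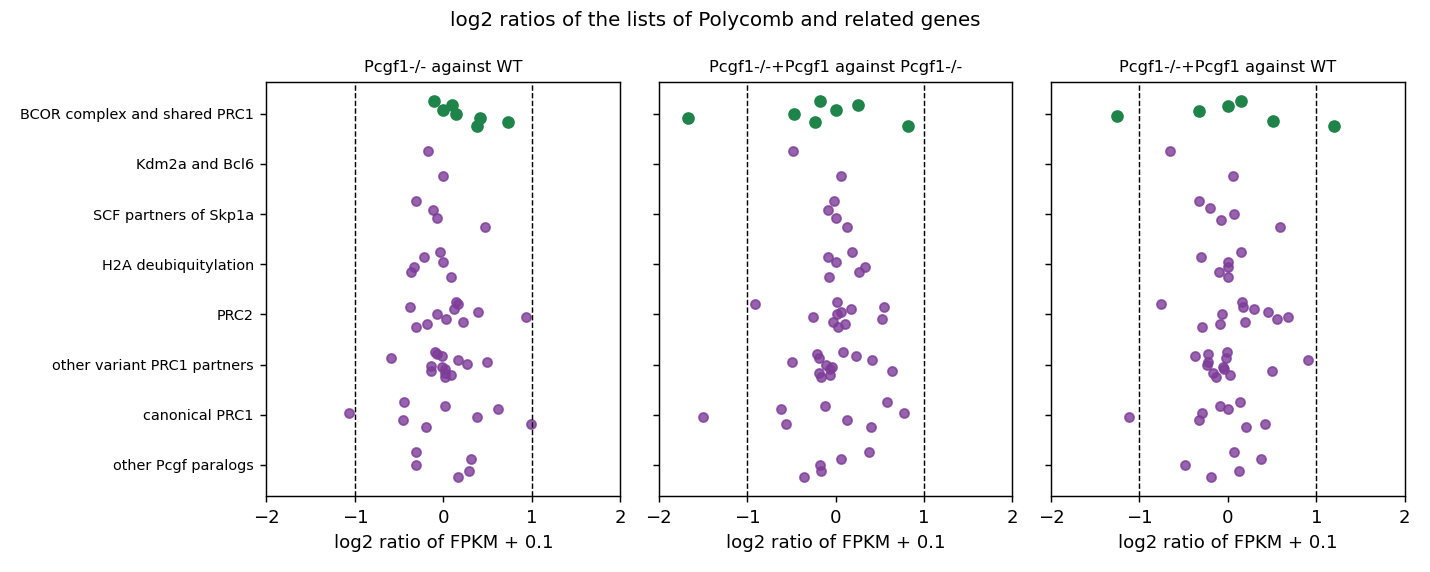
log2 ratio of FPKM + 0.1 of each gene of the BCOR complex set and of the other lists in the 3 comparisons, 1 point per gene, with dashed lines at 2-fold. Outside the BCOR complex set, Phc1 (-1.06) lies past a dashed line in Pcgf1-/- against WT and Cbx8 (-1.50 and -1.12) in the comparisons of Pcgf1-/-+Pcgf1.

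The lists held 155552 to 156379 rows a sample, of which 62.0% to 63.6% were at 0. Markers of ES cells were above 0 wherever they stood under their own name (6 or 7 of 8 a sample), with 29.3 FPKM as the lowest value. Nanog was listed at 68.2 FPKM in WT, 46.3 in the knockout and 123.0 in Pcgf1-/-+Pcgf1. Its log2 ratio of 1.41 for Pcgf1-/-+Pcgf1 against Pcgf1-/- was the only 1 of 6 past 2-fold, beside 8.62% of all genes. Of 14 fibroblast markers 11 were measured, and they summed to 169.6 FPKM in WT, 118.4 in the knockout and 122.3 in Pcgf1-/-+Pcgf1. Fn1 and Vim made up most of these sums, and without them the sums were 19.6, 10.9 and 18.0 FPKM in the same order, so that Pcgf1-/-+Pcgf1 then lay nearer to WT. Of the 11, 4 were past 2-fold lower in Pcgf1-/- against WT (Col1a1, Col1a2, Thy1 and Pdgfrb) and none higher, beside 7.23% of all genes in either direction, while Dcn and Twist1 had log2 ratios of 0.96 and 0.59. Of the same 11 genes, 3 were past the limit higher (Col1a1, Col1a2 and Thy1) and 1 lower (Twist1) in Pcgf1-/-+Pcgf1 against Pcgf1-/-, beside 8.62%. Col1a2 was listed at 0.635, 0.0213 and 0.148 FPKM in WT, Pcgf1-/- and Pcgf1-/-+Pcgf1, and Pdgfrb at 0.309, 0.0913 and 0.151. The calls of these genes rest on low values of unknown depth. Postn was listed at 0 in every sample, and Lum and Prrx1 in the knockout. The part of feeder RNA in the values above was not tested, and in such bulk samples fewer cells of a type and less RNA per cell cannot be told apart.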

How the data were processed

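Poly(A) RNA-seq data of 3 ES cell samples were used, which GEO's labels place in 3 groups of 1. The submitters' processing notes name TopHat2 2.0.12, Cufflinks 2.2.1, HTSeq 0.6.0 and mm10. The authors deposited an FPKM for each transcript event (first exon, last exon, skipped exon and the like), and the program that listed the events is not given in the sources used here. Depth is unknown. The level of a gene was the larger of its summed first-exon and summed last-exon FPKM. Ratios were taken on FPKM + 0.1, which understates the change of low genes, over all genes under a single name in both samples. A gene was called past 2-fold, since 1 sample a group allows no test. Joined names, unnamed rows and date-like names were left out of the background. The share over all genes keeps genes listed at 0 in both samples, which cannot pass 2-fold. The members and lists were chosen with earlier results of these data known.

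First exons with at least 10% of a gene, and alternative events listed in part of the samples or differing over 2-fold with at least 1 FPKM, were named. The Yaf2 exon and the Bcorl1 skip of several exons fall outside this rule, and they and the search for skips like that of Rybp were chosen after the values were seen. Of 8 alternatives, 7 were planned and 1 was added after seeing the data. The calling step was tested on simulated data with little noise and planted changes far larger than 2-fold. That test does not show how well calls near 2-fold or at low levels hold. Annotation and transcript sequences came from GENCODE vM21 and promoters from RefSeq. Software was Python 3.11.15, numpy 2.4.6, pandas 2.3.3 and matplotlib 3.10.9. A few genes named by the rule are not reported here.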

Additional observations from a re-analysis of the deposited data

How the results depend on the processing

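With a limit of 1.5-fold in place of 2-fold, 1 gene of the set (Bcorl1) was past the limit for Pcgf1-/- against WT in place of 0, and 2 (Bcor and Rybp) in place of 1 for Pcgf1-/-+Pcgf1 against Pcgf1-/-. The lower limit itself brings this about, and the share of all genes past 1.5-fold was not computed. Under the other 7 alternatives the counts stayed at 0, 1 and 2 for the 3 comparisons. These were pseudocounts of 1 and 0.01, a minimum of 5 FPKM, first exons only, last exons only, median-of-ratios scaling and, chosen after seeing the data, joined names read as the gene. The 120 single-gene values computed under these alternatives (none for the minimum) kept their side of 2-fold, but part of them could not differ. Joined names leave a gene under its own name unchanged. Summed first exons were already the level of each gene, apart from rounding, so these 2 settings repeat the main values. For Usp7 the last exons were at 0 throughout and bear on nothing. Scaling moved Pcgf1-/-+Pcgf1 against WT by 0.12 (log2), with which Rybp stood at -1.13, and turned the sign of Ring1 for Pcgf1-/- against WT to 0.06. With last exons only, Rybp in Pcgf1-/-+Pcgf1 was at 0, which gave -8.66 against Pcgf1-/- and -8.25 against WT, values set by the pseudocount. No paired analysis was possible because each group has 1 sample and no replicate number. Unknown depth limits Bcorl1, Ring1, Cbx8, Col1a2 and Pdgfrb most.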
